A study of Homo sapiens with 3 samples.

Results

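The regions described here were the peaks of XPB and of XPD, the helicases of the general transcription and repair factor TFIIH, on human chromosomes 4, 13 and 18 in HT1080 cells. HT1080 is an established fibrosarcoma line. Members were all peaks of either deposited list whose summit lay above position 2000000 of chromosome 4, 13 or 18, by hg19 coordinates. They numbered 1154 of 21555 XPB peaks (5.35%) and 738 of 14570 XPD peaks (5.07%), or 1892 of 36125 in all. The same position limit was applied to chromosomes 16, 17, 19 and 22, used for comparison, which held 3905 XPB and 2711 XPD peaks. The series comprised 3 untreated samples: a ChIP with a rabbit polyclonal antibody to XPB, a ChIP with a rabbit polyclonal antibody to XPD, and unenriched input DNA, all made from one pool of crosslinked HT1080 chromatin. The protocol text common to the samples names an antibody to CSB, and the antibody field of each sample was followed instead. With 1 library per antibody there was no replicate, so no p-value is given, and every interval covers counting error only. The input was not analysed here, so background in the chromatin is not separated from binding.

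TFIIH is a multi-subunit complex that joins RNA polymerase II at promoters and is also recruited to bulky DNA lesions in nucleotide excision repair. XPB (gene ERCC3) is a DNA translocase whose ATPase opens the promoter, and XPD (gene ERCC2) is the helicase that unwinds the damaged strand during repair. Chromosomes 4, 13 and 18 are known as poor in genes, and chromosomes 16, 17, 19 and 22 as rich in genes. Gene-poor chromatin often lies at the nuclear periphery, replicates late and is little transcribed.

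The names of the groups were checked against the number of annotated genes. RefSeq's GRCh38.p14 table, which is of another assembly and was used here only to count genes by chromosome, lists 770, 338 and 270 protein-coding genes on chromosomes 4, 13 and 18. It lists 854, 1169, 1451 and 451 on chromosomes 16, 17, 19 and 22. The counted stretches comprised 363 windows of 1 Mb on the gene-poor chromosomes (189, 97 and 77) and 262 on the comparison chromosomes (89, 80, 58 and 35). A counted stretch ran from the first to the last window of a chromosome that held a peak of either list, which leaves out the peak-free short arms of chromosomes 13 and 22. No genome or annotation of the hg19 build was used, so no sequence is shown and no peak is assigned to a gene.

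Peaks of both helicases were sparse on all 3 gene-poor chromosomes. XPB had 2.65 peaks per Mb on chromosome 4 (exact Poisson 95% interval 2.42 to 2.89), 3.48 on chromosome 13 (3.12 to 3.88) and 4.10 on chromosome 18 (3.66 to 4.58). On the comparison chromosomes it had 10.3 on chromosome 16, 16.1 on chromosome 17, 17.8 on chromosome 19 and 18.9 on chromosome 22. XPD had 1.67 peaks per Mb on chromosome 4 (1.49 to 1.86), 2.08 on chromosome 13 (1.81 to 2.39) and 2.87 on chromosome 18 (2.50 to 3.27). On the comparison chromosomes XPD had 6.93, 11.4, 12.8 and 12.6 in the same order of chromosomes. Chromosomes 4, 13 and 18 were, in that order, the 3 sparsest of the 22 autosomes in both lists. Neighbours in this order had overlapping intervals for XPB on chromosomes 13 and 18 and for XPD on chromosomes 4 and 13. The Poisson intervals take peaks as independent, so they show the order as more certain than it is. On chromosomes 4, 13 and 18 the variance over the mean of window counts was 3.84, 5.66 and 7.35 for XPB. For XPD it was 2.92, 3.24 and 4.28. Pooled, XPB reached 3.18 peaks per Mb on the gene-poor chromosomes and 14.9 on the comparison chromosomes, a ratio of 0.213 (exact interval 0.1996 to 0.228). Pooled XPD density was 2.03 on the gene-poor and 10.3 on the comparison chromosomes, a ratio of 0.196 (0.181 to 0.213).

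**Figure D1:**
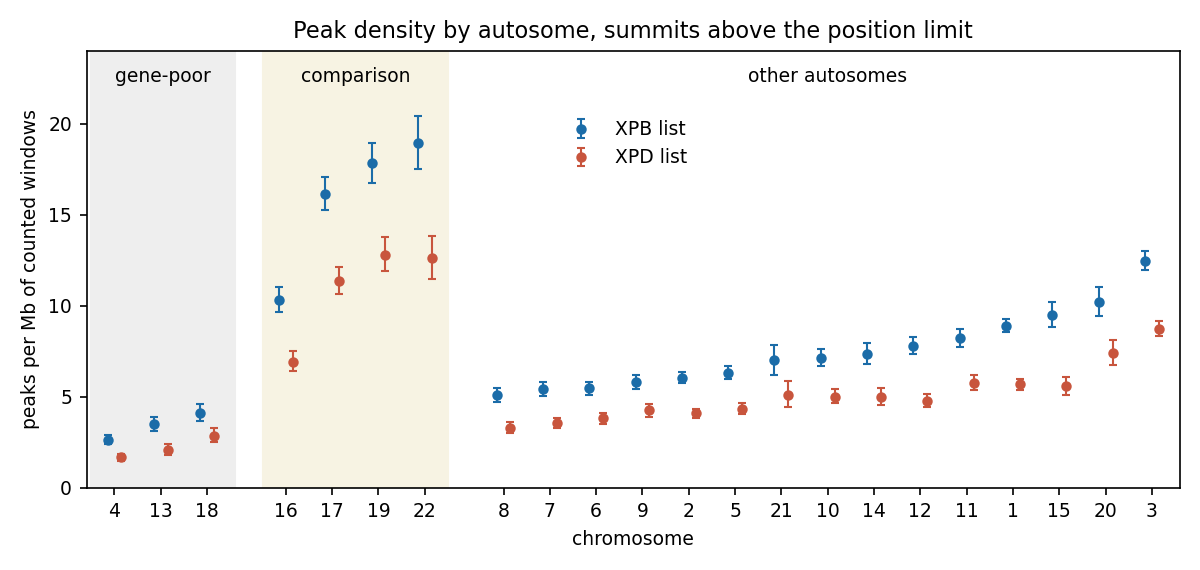
Peaks per Mb of counted windows for each autosome, with XPB in blue and XPD in red, exact Poisson 95% intervals as bars, and chromosomes 4, 13 and 18 at the left. The 3 gene-poor chromosomes lie between 1.67 and 4.10 peaks per Mb, below every other autosome in the same list.

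Set against the number of genes, the difference was much smaller. With peaks at all positions counted, the gene-poor chromosomes held 0.856 XPB peaks per protein-coding gene and the comparison chromosomes 1.03. For XPD the numbers were 0.553 and 0.708 peaks per gene, gene-poor chromosomes first. Over all autosomes the ratio was 1.12 for XPB and 0.760 for XPD, above both sets. The chromosomes within each set differed more than the sets did. Chromosome 4 had 0.675 XPB peaks per gene, chromosome 13 had 1.00 and chromosome 18 had 1.19. Chromosome 19, with the most genes of the comparison set, had 0.742, and chromosome 22 had 1.47. Peaks were only counted by chromosome here, so these ratios do not say that the peaks lay at genes.

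Pooled by set, strong peaks were thinned further than weak ones. The deposited score grows as the caller's p-value for a peak shrinks, and no listed peak scored under 150. Of the XPB peaks, 138 (11.96%, exact binomial interval 10.1 to 13.97) on the gene-poor and 586 (15.0%, 13.9 to 16.2) on the comparison chromosomes scored 300 or more, against 14.3% of all XPB peaks in the series. Of the XPD peaks it was 64 (8.67%, 6.74 to 10.9) and 359 (13.2%, 12.0 to 14.6), against 11.9% of all XPD peaks. The difference in share was -3.05 percentage points for XPB (Newcombe interval -5.14 to -0.77) and -4.57 for XPD (-6.83 to -2.01). Such peaks occurred at 0.3802 per Mb on the gene-poor and 2.24 on the comparison chromosomes for XPB, a ratio of 0.170 (0.140 to 0.205). For XPD they occurred at 0.176 and 1.37 per Mb, a ratio of 0.129 (0.097 to 0.168). Chromosome 18 had the lowest share of strong peaks of all 22 autosomes in both lists (10.4% for XPB and 4.98% for XPD), whereas chromosome 4, the sparsest, ranked 13 and 10 from the lowest, at 13.6% and 11.4%.

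The few peaks were not spread evenly along the chromosomes. Of the 363 gene-poor windows, 83 (22.9%, 18.6 to 27.5) held no peak of either list, against 30 of 262 comparison windows (11.5%, 7.86 to 15.9). The difference was 11.4 percentage points (5.43 to 17.1). Over all autosomes 429 of 2772 windows (15.5%) were empty, and chromosome 9, outside both sets, had the highest share, 26.4%. Chromosome 16 went against this division, with 20 empty windows of 89 (22.5%), close to the 23.3% of chromosome 4, 23.7% of chromosome 13 and 20.8% of chromosome 18. Windows with 1 to 4 peaks of both lists together made up 39.9% of the gene-poor and 9.92% of the comparison windows. Windows with 20 or more peaks made up 4.13% (15 windows) and 53.4% (140 windows). In the gene-poor windows 52 of the 363 (14.3%) were enough to hold 50% of all peaks, and in the comparison windows 57 of 262 (21.8%). Over all autosomes it was 362 of 2772 (13.1%), so the gene-poor chromosomes were not unusually concentrated.

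**Figure D2:**
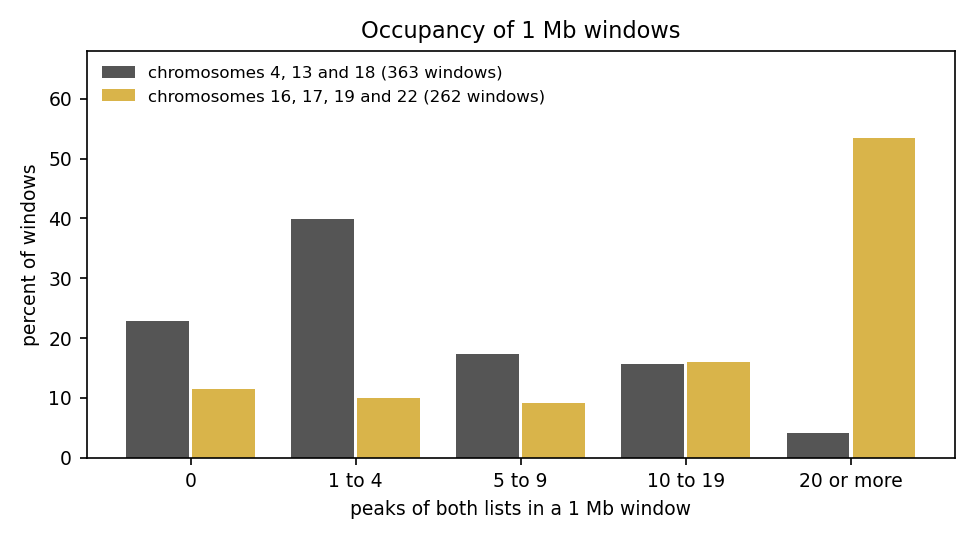
Percent of 1 Mb windows by the number of XPB and XPD peaks they held together, with chromosomes 4, 13 and 18 in grey and chromosomes 16, 17, 19 and 22 in yellow. Windows with 0 to 4 peaks were the most frequent on the gene-poor chromosomes, and windows with 20 or more on the comparison chromosomes.

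Each gene-poor chromosome had its own layout. On chromosome 4 peaks were densest at the start of the counted stretch: the first 10 windows held 8.70 XPB and 6.40 XPD peaks per Mb with no empty window, the last 10 held 3.50 and 2.20, and the 169 windows between them held 2.24 and 1.36. The fullest windows there ran from 2000001 to 3000000, with 17 XPB and 12 XPD peaks, and from 6000001 to 7000000, with 11 of each. On chromosome 13 both ends were denser than the middle. Its first 10 windows, which begin at 19000001, held 7.90 XPB and 3.50 XPD peaks per Mb, the last 10 held 6.40 and 4.50, and the 77 between them held 2.53 and 1.58. Its fullest windows ran from 114000001 to 115000000, with 19 XPB and 14 XPD peaks, and from 111000001 to 112000000, with 20 and 10. Chromosome 18 had its fullest windows inside the chromosome. The fullest window of all 3 chromosomes was that from 46000001 to 47000000, with 29 peaks of XPB and 18 of XPD. The next on chromosome 18 was that from 33000001 to 34000000, with 21 and 10. Its first 10 windows held 4.90 XPB and 3.70 XPD peaks per Mb, the last 10 held 2.70 and 2.50, and the 57 between them 4.21 and 2.79.

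**Figure D3:**
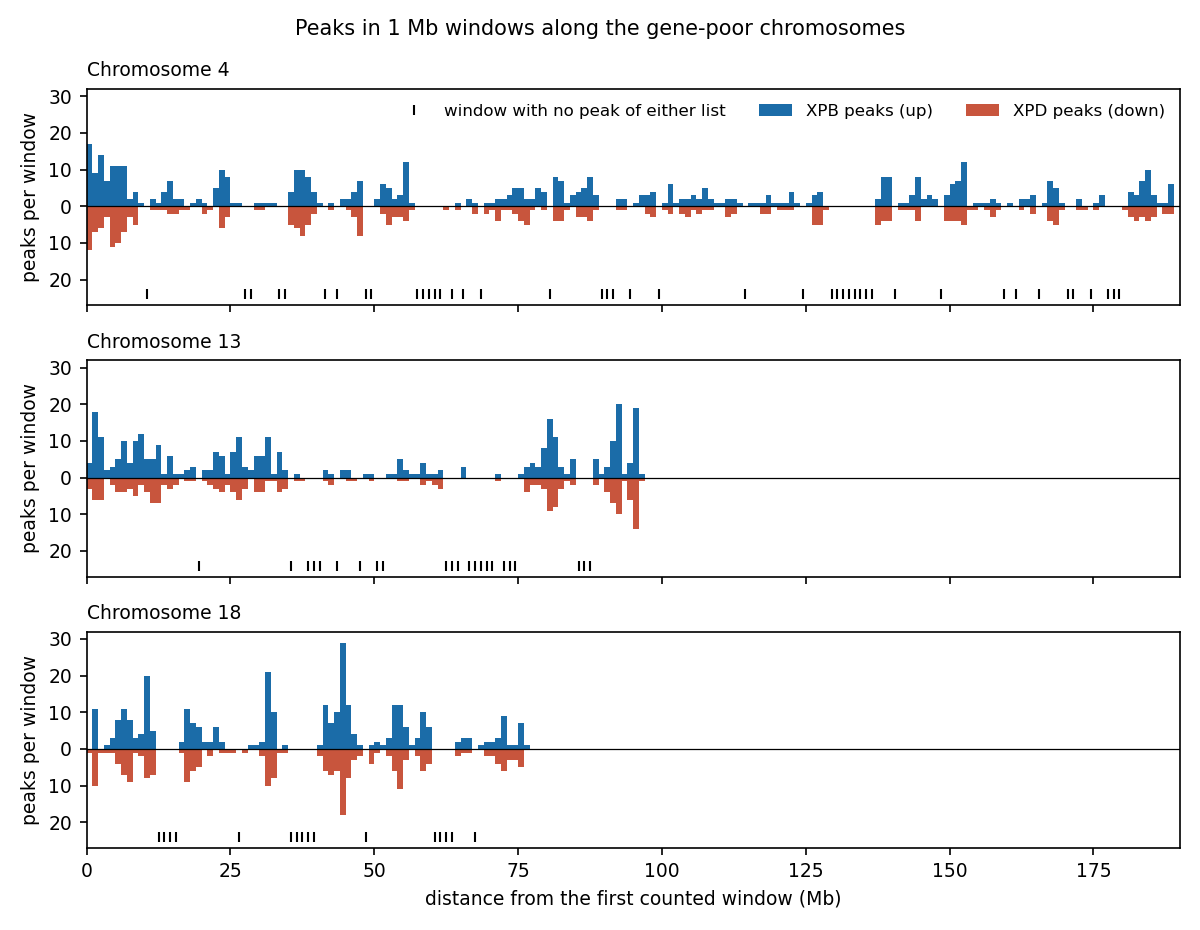
Number of XPB peaks (blue, upward) and XPD peaks (red, downward) in each 1 Mb window of chromosomes 4, 13 and 18, plotted by distance from the first counted window, with ticks marking windows that held no peak of either list. Each chromosome had both dense windows and peak-free runs, and windows full in one list were mostly full in the other.

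Each gene-poor chromosome also had long peak-free runs. The longest, on chromosome 4 from 131000001 to 139000000, comprised 8 adjoining windows. Its bordering summits, an XPD peak at 130053943 (15 fragments, score 289.69) and an XPB peak at 139162998 (21 fragments, score 324.39), lay 9.11 Mb apart. The next on chromosome 4 ran over 5 windows from 59000001 to 64000000. Chromosome 13 had 5 runs of 3 windows or more, the longest of 5 windows from 85000001 to 90000000 and the others of 3 windows each, the first of them from 57000001 to 60000000. Chromosome 18 had a run of 5 windows from 37000001 to 42000000 and a pair of runs of 4 windows, the first of them from 14000001 to 18000000. In all, 12 runs of 3 windows or more took up 49 of the gene-poor windows, and 4 such runs took up 21 of the comparison windows. The longest run of the comparison set had 10 windows, on chromosome 16 from 36000001 to 46000000. This order turned among peaks that scored at least 200, where the longest gene-poor run was 14 windows and the longest comparison run 11. Assembly gaps and sequence to which reads cannot be placed were not marked in the files, and their part in these runs was not tested.

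Wider stretches held few peaks. Runs of windows with at most 4 peaks each, a limit chosen after the data were seen, reached 19 windows on chromosome 13 from 54000001 to 73000000, which held 12 XPB and 8 XPD peaks. A second stretch of 14 windows on chromosome 13, from 81000001 to 95000000, held 5 XPB peaks and 1 XPD peak, with 11 windows empty. On chromosome 4 the longest such stretch had 15 windows, from 58000001 to 73000000, with 7 XPB and 8 XPD peaks. On chromosome 18 it had 11 windows, from 62000001 to 73000000, with 13 and 8. The longest on the comparison chromosomes had 12 windows, on chromosome 16 from 34000001 to 46000000, and held 2 XPB and 3 XPD peaks.

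Neighbouring peaks lay several times farther apart than on the comparison chromosomes. The median distance between neighbouring XPB summits was 94.4 kb on the gene-poor chromosomes (order-statistic interval 84.5 to 107.5) and 22.6 kb on the comparison chromosomes (21.2 to 23.99). For XPD it was 157.0 kb (135.1 to 188.9) and 31.4 kb (28.8 to 34.4). Chromosome 18 had the shortest XPB median of the gene-poor set, 68.6 kb (51.9 to 87.4), and chromosome 4 the longest, 119.3 kb (106.4 to 149.0). Neighbours more than 1 Mb apart made up 81 of 1151 XPB distances on the gene-poor and 25 of 3901 on the comparison chromosomes. The median over the mean distance was 0.302 for XPB on the gene-poor and 0.341 on the comparison chromosomes, and 0.321 and 0.330 for XPD, so the spacing was similarly uneven once scaled by density.

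**Figure D4:**
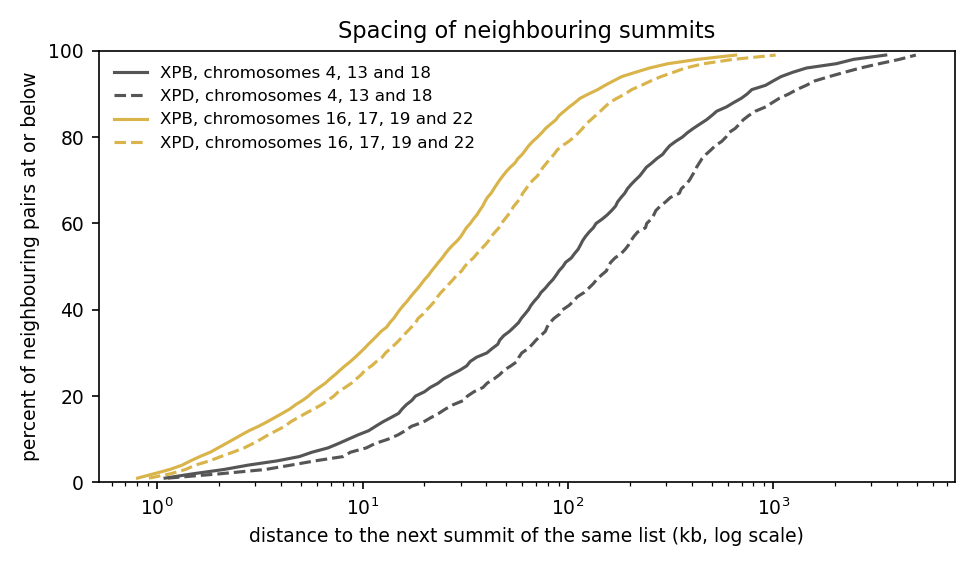
Cumulative percent of neighbouring summit pairs of the same list by the distance between them in kb, on a log axis, with XPB as solid and XPD as dashed lines. The lines of chromosomes 4, 13 and 18 (grey) lie to the right of those of chromosomes 16, 17, 19 and 22 (yellow), with XPB medians of 94.4 and 22.6 kb.

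Close neighbours were still present. A second XPB summit within 10 kb was found for 242 gene-poor XPB peaks (20.97%, 18.7 to 23.4) and 1913 comparison peaks (49.0%, 47.4 to 50.6), against 41.8% of all XPB peaks. For XPD the counts were 107 (14.5%, 12.0 to 17.2) and 1135 (41.9%, 40.0 to 43.7), against 34.5% of all XPD peaks. The share grew with density within the gene-poor set, from 14.6% on chromosome 4 (11.6 to 18.004) through 22.5% on chromosome 13 to 29.4% on chromosome 18 (24.5 to 34.8) for XPB. At the other extreme, 61 XPB peaks (5.29%) and 73 XPD peaks (9.89%) of the gene-poor chromosomes had no summit of their own list within 500 kb, compared with 14 (0.359%) and 12 (0.443%) on the comparison chromosomes. This share depends on peak density, and it was not counted over the whole series. The isolated gene-poor XPB peaks had a median height of 12 fragments and a median score of 173.9. The remaining gene-poor XPB peaks had 11 and 182.7. Of the isolated gene-poor peaks, 18 XPB (29.5%, 18.5 to 42.6) and 23 XPD (31.5%, 21.1 to 43.4) overlapped a peak of the other list. The remaining gene-poor peaks did so in 19.03% (16.7 to 21.5) of cases for XPB and 30.2% (26.8 to 33.9) for XPD, so both pairs of intervals overlap. On the comparison chromosomes 1 of the 14 isolated XPB and 1 of the 12 isolated XPD peaks did.

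Peaks on the gene-poor chromosomes were narrower. The median XPB width was 751.5 bp on the gene-poor chromosomes (interval 735 to 770) and 878 bp on the comparison chromosomes (865 to 891). The median XPD width was 830 bp (801 to 868) and 964 bp (947 to 979). Chromosomes 4, 18 and 13 had, in that order, the 3 lowest median widths of the 22 autosomes in both lists. Their intervals overlapped, at 719 to 777, 720 to 805 and 713 to 789 bp for XPB and 766 to 873, 786 to 900 and 806 to 894 bp for XPD. They also overlapped those of chromosome 7, 767 to 813 bp for XPB and 844 to 913 bp for XPD. The gap between the sets was there at matched scores as well. Among peaks that scored at least 150 and under 170, XPB medians were 673 bp (644 to 697) on the gene-poor and 741 bp (726 to 764) on the comparison chromosomes, and XPD medians 725 bp (686 to 761) and 823.5 bp (803 to 844). Among peaks that scored 400 or more they were 1105 bp (835 to 1198) and 1381 bp (1281 to 1450) for XPB, and 1333 bp (930 to 1780) and 1553 bp (1410 to 1666) for XPD; the XPD intervals overlap.

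Heights over all scores hardly differed, and at like score the gene-poor median was equal or slightly greater in every class of both lists. Summit height is the number of overlapping fragments at the summit, not scaled to depth. The median XPB height was 11 fragments in both sets (interval 11 to 12 on the gene-poor and 11 to 11 on the comparison chromosomes), and the median XPD height was 13 (13 to 13) on the gene-poor and 12 (12 to 12) on the comparison chromosomes. At scores of at least 200 and under 250 the mean XPB height was 12.5 and 11.4 fragments, gene-poor chromosomes first, and the mean XPD height 14.2 and 13.2. At scores of 400 or more the median heights were 22 and 18 fragments for XPB and 22.5 and 21 for XPD. The means there ran the other way, at 24.3 and 24.6 for XPB and 27.3 and 29.5 for XPD, and the tallest comparison summits had 417 and 317 fragments. Median scores were 182.5 (180.2 to 184.8) on the gene-poor and 194.2 (191.7 to 196.1) on the comparison chromosomes for XPB, and 178.2 (175.5 to 181.4) and 186.4 (184.7 to 188.5) for XPD. For XPD this order did not hold among peaks that scored 200 or more, whose medians were 255.6 and 253.4. Very tall summits were few. For XPB, 3 gene-poor summits (0.260%, 0.0536 to 0.758) and 13 comparison summits (0.333%, 0.177 to 0.569) reached 50 fragments, against 0.343% of all XPB summits. For XPD it was 2 (0.271%, 0.0328 to 0.975) and 15 (0.553%, 0.310 to 0.911), against 0.556% of all XPD summits, and the intervals of the sets overlap in both lists.

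The lists shared fewer of their peaks on the gene-poor chromosomes. Of the XPB peaks, 226 (19.6%, 17.3 to 21.99) overlapped an XPD peak by at least 1 bp on the gene-poor chromosomes and 1068 (27.3%, 25.96 to 28.8) on the comparison chromosomes, against 26.6% over the whole series. Of the XPD peaks, 224 (30.4%, 27.1 to 33.8) and 1045 (38.5%, 36.7 to 40.4) overlapped an XPB peak, against 38.7% over the whole series. The difference was -7.77 percentage points for XPB (-10.4 to -5.01) and -8.19 for XPD (-11.9 to -4.33). Each gene-poor chromosome lay below the pooled comparison share, at 19.2% on chromosome 4, 18.3% on chromosome 13 and 21.5% on chromosome 18 for XPB, and 29.5, 31.2 and 30.8% for XPD, although the intervals of chromosome 18 in both lists and chromosome 13 in XPD reached the pooled one. Of the comparison chromosomes, chromosome 16, at 22.4% for XPB and 33.1% for XPD, lay nearest to them. Low shares were not particular to the gene-poor chromosomes. Outside both sets, chromosome 8 had 21.6% for XPB and 31.9% for XPD, and chromosome 15 had 20.3% and 33.7%. The rule for sharing mattered: with summits within 250 bp of each other in place of any overlap, the shares were 15.7 and 17.5% for XPB and 24.5 and 25.2% for XPD, gene-poor chromosomes first, and the difference was then under 2 percentage points.

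The shortfall was not confined to one range of scores. The gene-poor XPB share was the lower in every class under 400, and the XPD share in every class under 400 except 250 to under 300, where it was 56.9% against 53.1%. The widest gaps were for XPB at 250 to under 300, with 30.1% (19.9 to 42.0) on the gene-poor and 41.3% (36.2 to 46.5) on the comparison chromosomes, and for XPD at 300 to under 400, with 73.7% (56.9 to 86.6) and 82.0% (76.1 to 87.0). At scores of at least 200 and under 250, 17.7% of gene-poor XPB peaks (12.8 to 23.6) and 25.9% of comparison XPB peaks (23.02 to 29.0) were shared. In the lowest class, 150 to under 170, 7.55% (5.22 to 10.5) and 10.01% (8.31 to 11.9) of XPB peaks and 15.2% (11.3 to 19.7) and 22.2% (19.5 to 25.03) of XPD peaks were shared. At scores of 400 or more the shares were 87.3% (76.5 to 94.4) and 84.1% (79.2 to 88.2) for XPB and 96.2% (80.4 to 99.9) and 96.1% (91.7 to 98.5) for XPD. Given the score mix of the comparison chromosomes, the gene-poor share would be 22.6% for XPB and 34.6% for XPD, which takes up part of the difference. The interval of the difference left out 0 in 2 classes, XPB at 200 to under 250 and XPD at 150 to under 170. Between peaks that both scored at least 300, 31.9% and 38.4% of XPB and 65.6% and 62.4% of XPD peaks were shared, so the XPD order turned. Shared gene-poor peaks had a median score of 272.0 for XPB and 210.1 for XPD, against 176.5 and 170.8 for gene-poor peaks of a single list.

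**Figure D5:**
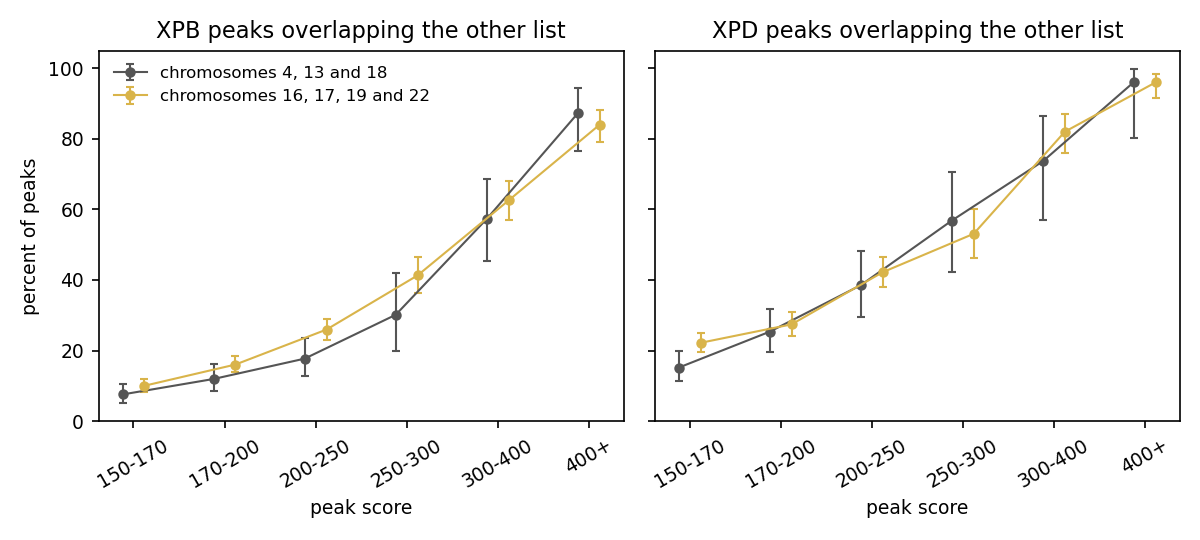
Percent of XPB peaks (left) and XPD peaks (right) that overlapped the other list, by class of peak score, with exact binomial 95% intervals, for chromosomes 4, 13 and 18 in grey and chromosomes 16, 17, 19 and 22 in yellow. The share climbs with score in both sets, and in the class of 400 or more it reaches 87.3 and 84.1% for XPB.

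Windows in the same class of peak number were also set side by side, and the order of the shares then depended on the class. In windows with 1 to 4 peaks of both lists, 13.2% of gene-poor XPB peaks (8.81 to 18.7) and 3.33% of the 30 comparison XPB peaks (0.0844 to 17.2) were shared, and 21.7% (14.7 to 30.1) and 4.76% (0.1205 to 23.8) of XPD peaks. At 5 to 9 peaks the XPB shares were 23.5% (18.3 to 29.4) and 19.1% (12.2 to 27.7), and the XPD shares 32.2% (25.3 to 39.7) and 31.8% (20.9 to 44.4). In windows with 10 to 19 peaks of both lists, 17.6% of the 477 gene-poor XPB peaks (14.3 to 21.3) and 19.5% of the 375 comparison XPB peaks (15.6 to 23.8) were shared. In windows with 20 or more it was 24.8% (19.5 to 30.7) and 28.7% (27.2 to 30.3). The XPD shares were 28.1% (23.002 to 33.6) and 29.6% (23.9 to 35.7) at 10 to 19 peaks, and 39.5% (31.6 to 47.7) and 39.97% (37.99 to 41.97) at 20 or more. The intervals of the gene-poor and comparison shares overlapped in each class of both lists. The gene-poor width median was the smaller in each class but 1, XPB at 1 to 4 peaks, with 686 bp (658 to 723) and 662 bp (552 to 801). The intervals were apart only in windows with 20 or more peaks for XPB, whose medians were 804.5 bp (762 to 872) on the gene-poor and 889 bp (876 to 902) on the comparison chromosomes. XPD medians there were 921 bp (868 to 990) and 972 bp (958 to 991). The densest class rests on 15 gene-poor windows, and the sparsest on 26 comparison windows. The densest class has no upper limit, so density was not matched within it. Its fullest window held 47 peaks on the gene-poor and 97 on the comparison chromosomes.

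Where peaks of the lists overlapped, their summits lay closer together on the gene-poor chromosomes, but hardly so among summits within 250 bp. Each pair joined an XPB and an XPD peak that overlapped one another more than any other peak. Over 222 pairs, XPB and XPD summits were a median of 53 bp apart (42 to 72) on the gene-poor chromosomes, and over 1024 pairs 109.5 bp (95 to 125) on the comparison chromosomes. Summits within 100 bp made up 61.3% (54.5 to 67.7) and 48.0% (44.9 to 51.2) of pairs. Over all autosomes the median was 97 bp, and 50.7% of pairs lay within 100 bp. In pairs whose lower score was under 200 the median was 67 bp (50 to 115) on the gene-poor and 164 bp (120 to 207) on the comparison chromosomes, and in pairs with both scores at 300 or more it was 24.5 bp (10 to 46) and 48 bp (32 to 67). When only summits within 250 bp of each other were paired, the medians were 38 and 40 bp. That rule leaves out the more distant pairs by construction. Of the pairs made by overlap, 180 of 222 gene-poor and 669 of 1024 comparison pairs lay within 250 bp. Pairs were not matched for peak width. The library fragments, 400 to 700 bp long, were far longer than these distances. Paired heights were related, with a Spearman's rho of 0.68 on the gene-poor and 0.56 on the comparison chromosomes, a description over peaks that share their libraries.

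The XPB list was the longer on each gene-poor chromosome. The ratio of XPB to XPD peak numbers was 1.59 on chromosome 4 (exact interval 1.38 to 1.83), 1.67 on chromosome 13 (1.401 to 2.00) and 1.43 on chromosome 18 (1.20 to 1.71), or 1.56 pooled (1.42 to 1.72). On the comparison chromosomes it was 1.44 (1.37 to 1.51), so the intervals of the sets overlap. How deeply each ChIP was sequenced is not known here, so the ratio is no measure of relative binding. It was 1.88 and 2.16 among gene-poor peaks that scored at least 200 and 300, and 0.969 (0.873 to 1.08) when the XPB list was cut to the length of the XPD list by score. Windows with peaks of a single list were commoner on the gene-poor than on the comparison chromosomes. Of 363 gene-poor windows, 54 held XPB peaks only and 15 XPD peaks only, against 10 and 7 of 262 comparison windows. Over all autosomes it was 301 and 125 of 2772. These counts were not matched for the number of peaks per window. Window counts of XPB and XPD had a Spearman's rho of 0.81 on the gene-poor and 0.95 on the comparison chromosomes. Over all autosomes it was 0.89. Tied empty windows take part in this description.

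The tallest and highest-scoring sites of the 3 chromosomes were common to both lists, with 1 exception. On chromosome 4 the tallest XPB summit and the second tallest XPD summit were at one site, from 152019870 to 152021209, where XPB reached 64 fragments (score 1332.3) and XPD 55 (score 986.69), with summits 8 bp apart. It also had the highest XPB score of the chromosome, and no other XPB summit lay within 108.9 kb. The tallest XPD summit of chromosome 4 lay from 190156022 to 190156753, where XPB reached 49 fragments and XPD 56, with summits 2 bp apart. The highest XPD score of the chromosome, 1064.86, belonged to a peak from 141071350 to 141073794 with 31 fragments, also the widest XPD peak there at 2445 bp, and its XPB partner had 33 fragments and a score of 779.05. The third tallest XPD summit, with 35 fragments, lay from 100871141 to 100871598, where XPB had 24.

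One tall summit of chromosome 4 stood apart from these. The XPB peak from 49315982 to 49316501 had 51 fragments, the second tallest of the chromosome, but a score of 191.8 that ranked 10417 of 21555, and no overlapping XPD peak. Its nearest XPD summit was 2.75 kb away. The widest XPB peak of chromosome 4, 2825 bp with 31 fragments, lay from 49513296 to 49516120, and the XPD peak it overlapped most had 35 fragments.

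On chromosome 13 the same 3 sites gave the tallest summits of both lists, and none reached 50 fragments. They lay, in the XPB list, from 44379828 to 44380210, where XPB reached 36 fragments and XPD 31, from 45010636 to 45011304, with 34 and 48, and from 33859481 to 33860274, with 33 and 31. Their summits were 17, 24 and 33 bp apart. The highest score of the XPB list was 751.59, for a peak from 99136616 to 99137802 with 18 fragments, and its XPD partner had 21 fragments and a score of 475.29. The highest XPD score, 644.1, belonged to a peak from 111521533 to 111523312 with 17 fragments, also the widest XPD peak there at 1780 bp, which overlapped 2 XPB peaks. The widest XPB peak, from 109916986 to 109918905, spanned 1920 bp with 24 fragments.

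Chromosome 18 likewise had the same 3 tallest sites in both lists. The tallest lay from 75705312 to 75706097, where XPB reached 56 fragments (score 906.06) and XPD 45 (score 910.23), and the next XPB summit was 926.2 kb away. Another lay from 55888331 to 55889086, where XPB reached 32 fragments and XPD 36. A broad site from 12278796 to 12281288, 2493 bp wide in the XPB list, had 32 and 26 fragments, and its XPB score of 1215.89 was the highest of the chromosome. The highest XPD score, 1027.72, was that of the widest XPD peak of the gene-poor chromosomes, 3067 bp from 3621570 to 3624636. Its summit had 23 fragments, and the XPB peak at the same place, the widest XPB peak of chromosome 18 at 2755 bp, had 16 fragments and a score of 1082.12.

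The highest-scoring peaks of a single list scored lower than the best shared ones. On chromosome 4 an XPB peak from 42659280 to 42660035 had 16 fragments and a score of 501.02, with the nearest XPB summit 1370 kb and the nearest XPD summit 675.2 kb away. The XPD counterpart, from 2813322 to 2814189, had 15 fragments and a score of 382.58. On chromosome 13 an XPB peak from 99629821 to 99630520 had 28 fragments and a score of 501.07, with the nearest XPD summit 12.5 kb away, and an XPD peak from 95948583 to 95949343 had 21 fragments and a score of 345.05. On chromosome 18 an XPB peak from 47013515 to 47014228 had 21 fragments and a score of 377.66, and an XPD peak from 21164427 to 21165761 had 17 fragments and a score of 442.61. None of these 6 peaks has a replicate check.

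The position limit set aside few peaks. It removed 20 XPB and 18 XPD peaks from chromosome 4, 6 of each from chromosome 18 and none from chromosome 13. On chromosome 4 the last XPB summit outside it, at 1941584, had 11 fragments and a score of 157.89, and the first inside, at 2010691, had 18 fragments and a score of 319.66. On chromosome 18 the last XPD summit outside, at 1279010, had 12 fragments and the first inside, at 2438611, had 14.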

How the data were processed

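The submitters' processing notes name hg19, Bowtie 0.12.7 and MACS 1.4, and 1 peak list was deposited for each ChIP sample. The deposited peak score, -10 log10 of the p-value by the caller's convention, and the deposited summit signal, a whole-number pileup height not scaled to depth, were read by the caller's usual layout, since the files carry no headers. The caller's control and thresholds are not given in the sources used here. Per the labels' protocols, amplification took 12 PCR cycles for each ChIP and 9 for input DNA. Files were matched by peak name, and positions are 1-based. Shares carry exact binomial, densities exact Poisson, medians order-statistic and differences of shares Newcombe 95% intervals; PCR copies are not independent molecules. Named peaks were, on each gene-poor chromosome and in each list, the 3 tallest, the highest-scoring, the highest-scoring of a single list and the widest, and named windows were the 2 fullest and the 2 longest empty runs. Members, lists and alternatives were chosen with earlier results of these data known. Overlap, window, spacing and interval functions were tested on simulated data with Python 3.11.15, numpy 2.4.6, pandas 2.3.3, scipy 1.17.1 and matplotlib 3.10.9.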

Additional observations from a re-analysis of the deposited data

How the results depend on the processing

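No paired analysis was possible because each antibody had 1 library and the labels give no replicate numbers. Of 141 alternative values, 76 stayed within the interval of the reported value, 60 moved beyond it and 5 turned direction against the comparison chromosomes or, for the number ratio, against 1; the cause was not tested where no construction shows it. Requiring a score of at least 200 in both lists, which leaves fewer peaks, gave density ratios of 0.1695 for XPB and 0.149 for XPD, shared shares of 24.5 and 45.98%, median heights of 14 and 15, median scores of 250.3 and 255.6 (the XPD score turned, against 253.4), median widths of 894 and 1001.5 bp, median distances of 262.0 and 494.2 kb, 13.6 and 10.7% with a close neighbour, 45.98% empty windows, a longest run of 14 Mb (turned, against 11), a summit distance of 38 bp and a number ratio of 1.875. Requiring at least 300 gave 0.1704 and 0.129, 31.9 and 65.6% (the XPD share turned, against 62.4), heights of 18 and 20, scores of 375.0 and 378.5, widths of 993.5 and 1160.5 bp, distances of 863.7 and 2225 kb, 10.1 and 6.25%, 72.3% empty, a run of 17 Mb (turned, against 12), 24.5 bp and 2.16. Pairing by summits within 250 bp gave shares of 15.7 and 24.5% and a summit distance of 38 bp. Lists of the same length gave shares of 26.99 and 26.2%, 28.1% empty windows, a run of 9 Mb and a number ratio of 0.969, which turned by construction. Windows of 500 kb gave 37.2% empty and a run of 8.5 Mb, and windows of 2 Mb 11.5% and 6 Mb. A neighbour within 50 kb was found for 53.3 and 43.6%. Of 2 alternatives chosen after seeing the data, counting only windows with a peak gave density ratios of 0.245 and 0.226, and the comparison score mix gave shares of 22.6 and 34.6%.

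Leaving out each gene-poor chromosome in turn gave density ratios of 0.197 to 0.252 for XPB and 0.175 to 0.235 for XPD, median distances of 81.2 to 109.2 and 131.6 to 189.7 kb, close-neighbour shares of 17.8 to 25.8 and 12.6 to 17.02%, and a longest run of 5 to 8 Mb, the 5 being without chromosome 4. The same ranges were 18.9 to 20.1 and 30.04 to 30.97% for shared peaks, 751 to 756 and 816 to 844 bp for width, 22.4 to 23.4% for empty windows, 48.5 to 57 bp for summit distance and 1.52 to 1.62 for the number ratio. With no replicate and unknown read depth, a peak missing from a list is not shown to be unbound, and low summits rest on few fragments.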
